A study of Bos taurus with 12 samples.

Results

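The 50 genes described here encode the proteins that choose and license origins of DNA replication, unwind the template, copy it, join the lagging strand and rebuild chromatin behind the fork. They were taken by gene symbol from the deposited gene table, where each of the 50 had 1 row among 18436 genes, and all 50 were among the 12302 genes whose mean reached 0.5 FPKM (fragments scaled to exon length and to mapped reads) that entered the test. The genes lie on 22 of the 29 autosomes of the bovine assembly ARS-UCD1.2.

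The study profiled primary myoblasts from the longissimus dorsi muscle of newborn Qinchuan cattle, which the study's methods describe as isolated from a single animal. Cells of the GM group were harvested as proliferating myoblasts at 80% confluence in DMEM/F12 with 20% fetal bovine serum. Cells of the DM group were moved to DMEM/F12 with 2% horse serum and harvested as myotubes after 4 days. Each group gave 3 input libraries, which measure mRNA, and 3 libraries of RNA fragments pulled down with an antibody against N6-methyladenosine (m6A), a methyl mark on adenosine within mRNA. The labels do not say whether replicates were separate isolations or parallel dishes, so p-values measure only the spread between these libraries.

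Replication begins where the origin recognition complex (ORC) sits on DNA. CDC6 and CDT1 then load the ring-shaped MCM2 to MCM7 helicase, and geminin holds CDT1 back. The kinase CDC7 with DBF4, together with CDC45 and the GINS complex, turns the loaded ring into a moving helicase, behind which polymerase alpha and primase, polymerases delta and epsilon, the clamp PCNA and its loader RFC make the new strands. Many of these genes are transcribed most in dividing cells, and myotubes form by fusion of myoblasts that have left the cell cycle.

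The FPKM summed to between 415740.2 and 434458.3 in the GM libraries and between 386436.5 and 390826.9 in the DM libraries, with 16016 to 16289 genes above 0 in the libraries of GM and DM. The read depth behind a single FPKM value cannot be read from the table. The muscle label was checked with 9 myogenic markers, all tested, of which ACTN2, CKM and MYH3 rose and MYF5, MYOD1 and PAX7 fell. MYOG, a marker of committed myocytes, was already at 197 ± 8.95 FPKM in GM (SD, n = 3) beside 243 ± 14.9 in DM. Of 6 fibroblast markers 0 were called by limma and 3 were higher in DM at an unadjusted p under 0.05, and their summed level was 10300 to 10400 FPKM in GM and 11600 to 12200 in DM. Of the other marker lists, 4 of 5 endothelial, 3 of 5 immune and 4 of 5 adipocyte genes had a row. KDR, PTPRC, CD3E and CEBPA had none. Over the genes with a row, summed endothelial markers stayed between 0.331 and 0.653 FPKM in all 6 libraries. Immune markers stayed between 1.01 and 2.01, with CD68 alone at means of 1.17 in GM and 1.47 in DM, and adipocyte markers between 1.72 and 2.48. Within the adipocyte list PPARG fell, PLIN1 was at 0.870 FPKM in GM and 0.985 in DM, and FABP4 (0.106 and 0.578 FPKM) and ADIPOQ (0.153 and 0.0109 FPKM) were below the filter and not tested. The part of these other cell types in the results below was not tested.

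The mRNA of many, but not all, of the 50 genes was lower in the myotubes. A gene was called when its p from limma was below 0.05 and it differed by more than 1.5-fold on a log2(FPKM + 1) scale. That scale understates changes at low levels, most of all near or below 1 FPKM. Mean FPKM of GINS1, POLA2 and POLD1 was 1.60, 1.76 and 1.64 times higher in GM, yet none was called. By the calling rule 22 of the 50 genes fell and 0 rose, where 6.97% of all tested genes fell, 4.9% rose and 11.9% did either. At an unadjusted p under 0.05 alone, 38 of the 50 were lower and 2 higher, where 3861 and 2380 of the 12302 tested genes were. Counting by a Benjamini-Hochberg adjusted p under 0.05 without the fold threshold, 36 of the 50 were lower and 2 higher (PRIM2 and RPA1), against 26.7% and 16.1% of all tested genes. The 3 libraries of DM lay entirely below the 3 of GM in 40 genes and entirely above in 2, and they overlapped in 8. Over all tested genes these shares were 33.0% below and 21.1% above, 54.1% together.

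The median log2 fold change (DM minus GM) of the 50 genes was −0.55, with a range from −1.34 for MCM5 to 0.39 for PRIM2, and the median over all tested genes was −0.05. Mean levels ran from 0.928 to 42.9 FPKM in GM and from 0.241 to 52.4 FPKM in DM, with medians of 6.37 and 4.16 FPKM. Summed over the 50 genes, they took 0.0941 to 0.103% of the FPKM in the GM libraries and 0.0771 to 0.0827% in the DM libraries. In bulk RNA, fewer cells expressing a gene and less of its RNA per cell cannot be told apart. GM replicate 3 was the lowest library of its group for 27 of the 50 genes and DM replicate 2 for 25, and leaving out any 1 library gave between 21 and 24 calls.

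**Figure D1:**
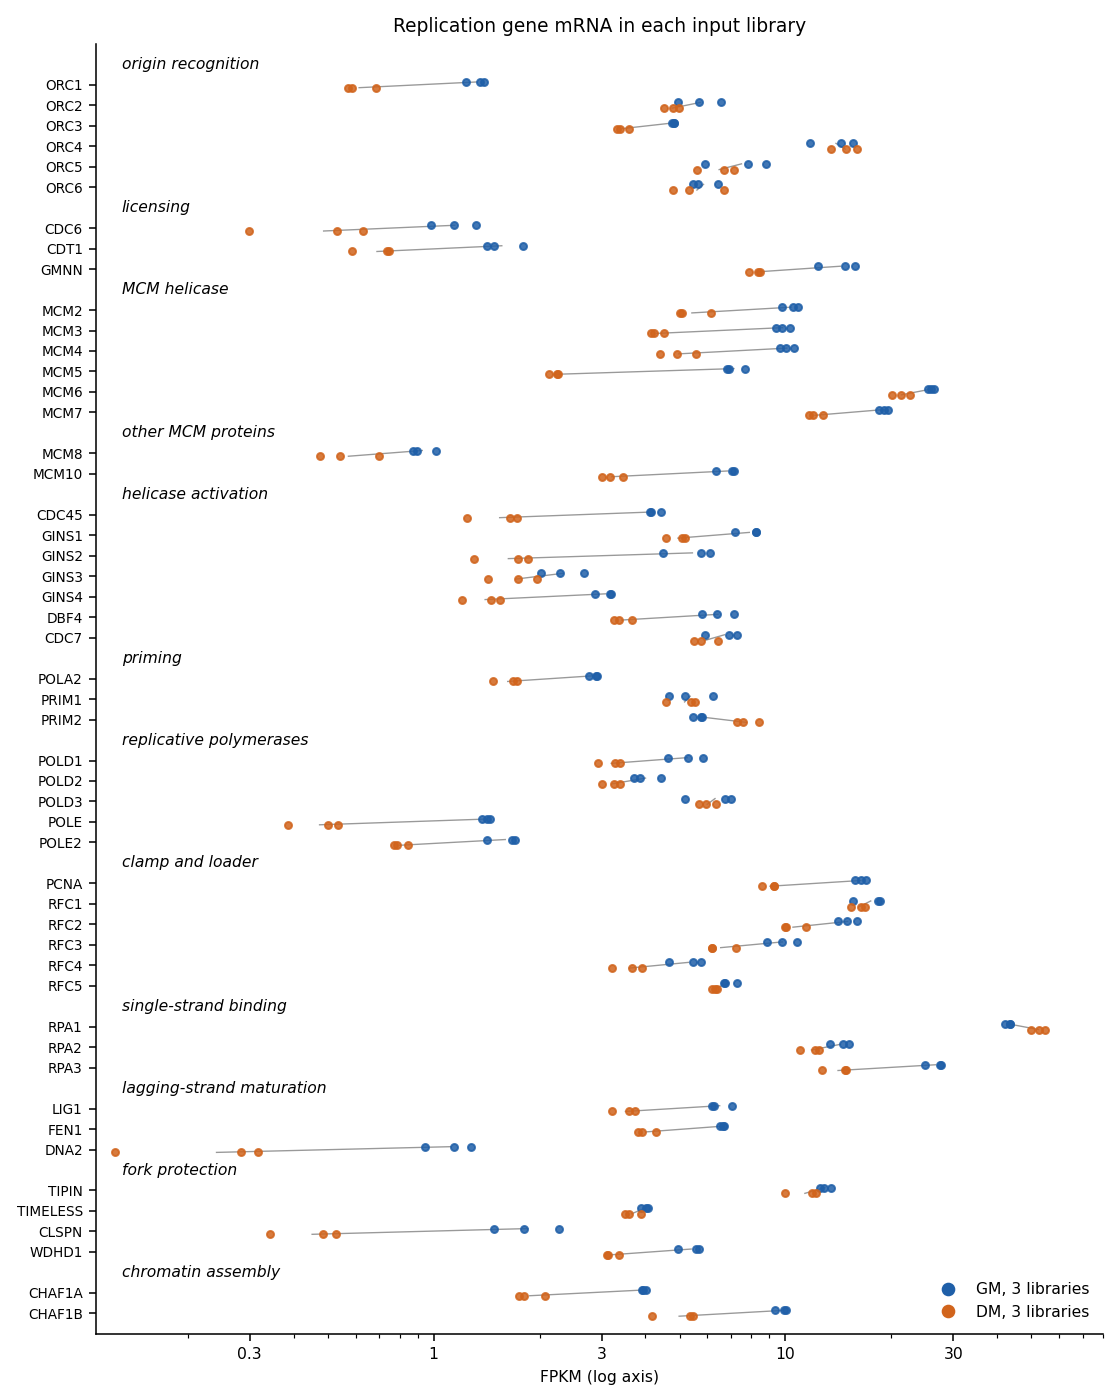
FPKM of each of the 50 replication genes on a log axis, 1 point per input library (blue GM, orange DM, 3 each), grouped by role, with a line between the group means. The orange points lie left of the blue points in 40 genes, right of them in PRIM2 and RPA1, and overlap them in 8.

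Of the 6 origin recognition genes 0 were called by limma, and the median log2 fold change was −0.20. At an unadjusted p under 0.05, 3 were lower, where 3861 of all 12302 tested genes were. ORC1, the largest subunit, read 1.24, 1.35 and 1.39 FPKM in GM and 0.686, 0.571 and 0.584 FPKM in DM. The groups did not overlap and the mean was 2.16-fold higher in GM, yet on the log2(FPKM + 1) scale the difference was −0.53 ± 0.077 (SE, adjusted p = 8.8e-04), short of the fold threshold. ORC1 was called with a pseudocount of 0.1 FPKM (−1.002) and after rescaling to TPM (−0.68).

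ORC3, a core subunit of the ring that grips DNA, read 4.82, 4.75 and 4.84 FPKM in GM and 3.39, 3.33 and 3.58 FPKM in DM, a separation in every library with a log2 fold change of −0.39 ± 0.0598 (adjusted p = 0.0012). ORC4, the most abundant subunit per length, read 14.4, 15.6 and 11.8 FPKM in GM and 14.9, 13.5 and 16.0 FPKM in DM. Its groups overlapped and its log2 fold change of 0.09 had a 95% interval from −0.15 to 0.33, turning to −0.02 without GM replicate 3. ORC6, the smallest subunit, read 6.44, 5.63 and 5.48 FPKM in GM and 5.31, 4.79 and 6.71 FPKM in DM. These overlapped too, and the log2 fold change of −0.06 had an interval from −0.32 to 0.19 and was 0.05 after rescaling to TPM. ORC2 had means of 5.73 and 4.76 FPKM and ORC5 means of 7.50 and 6.48 FPKM, with overlapping libraries in both. ORC1 and ORC6 minus ORC2 to ORC5 moved by −0.12 (exact permutation p = 0.3, two-sided, over 6 libraries), and by −0.33 with a pseudocount of 0.1 FPKM.

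Of the 3 licensing genes, 2 fell. GMNN, which encodes geminin, fell from 15.8, 14.7 and 12.4 FPKM in GM to 8.46, 8.36 and 7.90 FPKM in DM. No DM library reached a GM library, and the log2 fold change was −0.72 ± 0.0859 (adjusted p = 2.9e-04). CDT1, the loader that geminin inhibits, fell from a mean of 1.56 ± 0.201 FPKM to 0.690 ± 0.0904 FPKM (log2 fold change −0.60, adjusted p = 9.8e-04). That call lay close to the threshold, since the log2 fold change was −0.54 without GM replicate 3 −0.55 without DM replicate 1 and −0.57 with size factors.

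CDC6, the ATPase that brings the helicase to ORC, read 1.14, 1.32 and 0.986 FPKM in GM and 0.299, 0.631 and 0.531 FPKM in DM. Its mean was 2.36-fold higher in GM with no overlap, and its log2 fold change of −0.53 ± 0.11 (adjusted p = 0.0051) missed the fold threshold, which it passed without GM replicate 3 (−0.59) or without DM replicate 2 (−0.60), with a pseudocount of 0.1 FPKM (−1.13) and after rescaling to TPM (−0.74). CDC6 overlaps WIPF2 on the same strand, so reads of both genes may have been shared, and WIPF2 itself was at 5.71 and 5.42 FPKM. The difference between CDT1 with CDC6 and GMNN changed by 0.16 between the groups (exact permutation p = 0.3), where the smallest p that 3 against 3 libraries allow is 0.1. Its direction turned with a pseudocount of 0.1 FPKM (−0.32) and after rescaling to TPM (−0.10).

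The mRNA of every subunit of the replicative helicase was lower, by differing amounts. Of MCM2 to MCM7, the 6 subunits of the ring, 5 of 6 fell, all 6 had an adjusted p under 0.05, and in all 6 every DM library was below every GM library. MCM5, the largest fall of the 50 genes by log2 fold change, read 6.83, 6.90 and 7.69 FPKM in GM and 2.25, 2.12 and 2.24 FPKM in DM. Its mean was 3.24-fold higher in GM and its log2 fold change was −1.34 ± 0.0677 (adjusted p = 2.7e-06), which ranked 147 from the largest fall among the 12302 tested genes.

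MCM3 fell from 9.81 to 4.31 FPKM (log2 fold change −1.03), MCM4 from 10.1 to 4.97 FPKM (−0.90), MCM2 from 10.4 to 5.42 FPKM (−0.83) and MCM7 from 19.1 to 12.1 FPKM (−0.61). MCM7 came just under the fold threshold without DM replicate 2 (−0.58), with size factors (−0.55) and after rescaling to TPM (−0.51). MCM6, the most abundant subunit per length, read 25.9, 26.5 and 25.4 FPKM in GM and 20.1, 21.3 and 22.6 FPKM in DM. Here too the groups were apart, but the log2 fold change was only −0.27 ± 0.0566 (adjusted p = 0.0058) and MCM6 was not called. After rescaling to TPM the log2 fold change of MCM6 was −0.15. The ratio of MCM6 to MCM5 in FPKM was 3.63 in GM, 3.3 to 3.84 over its libraries, and 9.69 in DM, 8.93 to 10.1 over its libraries.

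The helicase subunits were also set against ORC2 to ORC5, a contrast that leaves out ORC1 and ORC6. The mean of MCM2 to MCM7 minus the mean of ORC2 to ORC5, in log2(FPKM + 1), was 0.69 ± 0.192 in GM and 0.04 ± 0.125 in DM (SD, n = 3). The difference of −0.66 separated the groups in every library and had an exact permutation p of 0.1, the smallest possible, and 0.15 after Benjamini-Hochberg adjustment over the 6 contrasts of this kind. Among MCM proteins outside the ring, MCM10, a scaffold that helps to activate the helicase, fell from 7.15, 7.04 and 6.35 FPKM to 3.16, 3.45 and 3.02 FPKM, with no overlap and a log2 fold change of −0.90 (adjusted p = 3.2e-05). MCM8, which works with MCM9 in recombination, read 0.897, 1.01 and 0.874 FPKM in GM and 0.698, 0.477 and 0.543 FPKM in DM. It lay lower in every DM library with a log2 fold change of −0.30 (adjusted p = 0.025) and was not called, except with a pseudocount of 0.1 FPKM (−0.62).

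**Figure D2:**
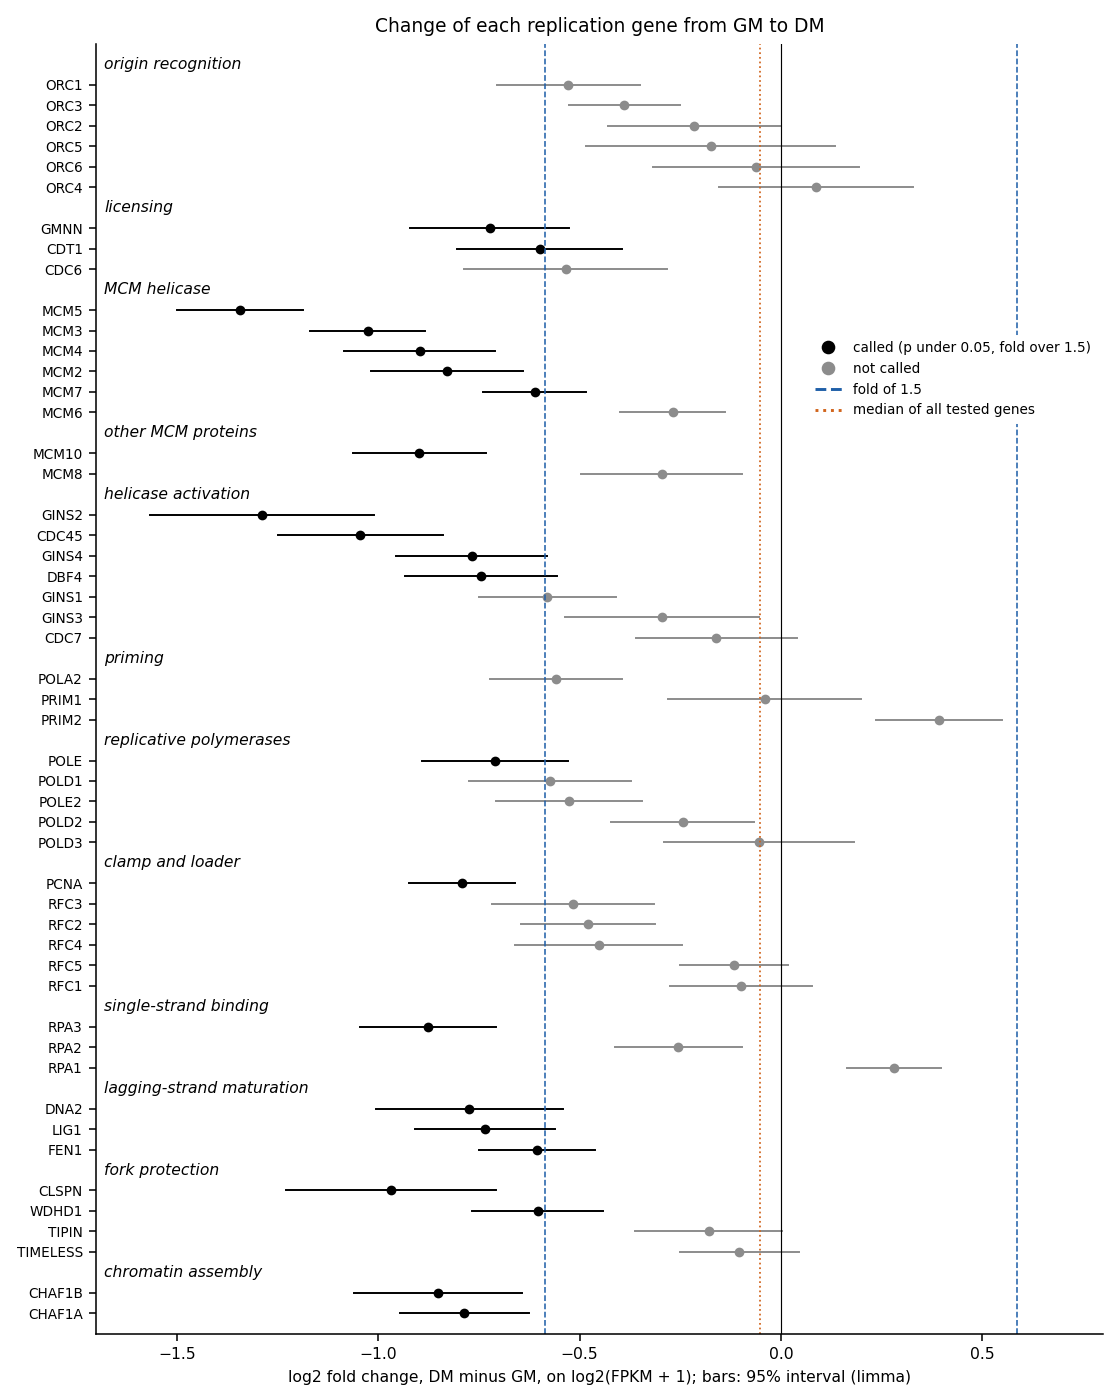
Log2 fold change (DM minus GM, on log2(FPKM + 1)) of each of the 50 genes by role, with its 95% interval from limma, where black marks the 22 called genes and grey the 28 others. The dashed lines stand at a fold of 1.5 and the dotted line at the median of all tested genes (−0.05), and no gene passes the right-hand dashed line.

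Among the genes that switch the helicase on, 4 of 7 fell. GINS2, a subunit of the 4-part GINS complex, fell from 5.76, 6.09 and 4.47 FPKM to 1.30, 1.74 and 1.86 FPKM. The lowest GM library was above the highest DM library, the mean was 3.34-fold higher in GM and the log2 fold change was −1.29 ± 0.121 (adjusted p = 7.8e-05). GINS4 fell from 3.19, 2.88 and 3.17 FPKM to 1.2005, 1.4548 and 1.5463 FPKM (−0.77, adjusted p = 1.5e-04), again with no overlap. GINS1 went from 7.89 to 4.95 FPKM, at −0.58 just short of a call. It was called without GM replicate 3 (−0.64), DM replicate 1 (−0.60) or DM replicate 3 (−0.61), and with a pseudocount of 0.1 FPKM (−0.66).

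GINS3 had means of 2.33 and 1.71 FPKM (−0.30, adjusted p = 0.051). The gap between GINS1, GINS2 and GINS4 on the one side and GINS3 on the other changed by −0.58 (exact permutation p = 0.1, adjusted 0.15), with the groups apart. GINS3 had the smallest fall of the 4 subunits, so this split runs along the changes it measures and is not independent support. CDC45, the helicase cofactor, fell from 4.22 ± 0.167 to 1.54 ± 0.259 FPKM (−1.05). DBF4, the regulatory subunit of the kinase, fell from 6.43 ± 0.672 to 3.42 ± 0.213 FPKM (−0.75), while CDC7, the catalytic subunit, read 6.92, 7.29 and 5.91 FPKM in GM and 6.41, 5.49 and 5.76 FPKM in DM. The CDC7 libraries overlapped, and its log2 fold change of −0.16 had an interval from −0.36 to 0.04 (adjusted p = 0.17). The ratio of CDC7 to DBF4 was 1.04 in GM and 1.72 in DM, and the difference between their changes was not tested.

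The 3 priming genes gave 0 calls with limma and pointed both ways, 1 lower and 1 higher at an unadjusted p under 0.05. POLA2, the accessory subunit of polymerase alpha, read 2.76, 2.92 and 2.90 FPKM in GM and 1.72, 1.47 and 1.68 FPKM in DM. It was lower in each DM library with a log2 fold change of −0.56 (adjusted p = 4.3e-04), and among the alternatives run it passed the fold threshold only when DM replicate 1 was left out (−0.59) or with a pseudocount of 0.1 FPKM (−0.78). PRIM2, the large primase subunit, read 5.76, 5.80 and 5.45 FPKM in GM and 7.27, 7.59 and 8.42 FPKM in DM. Every DM library was above every GM library, with a log2 fold change of 0.39 ± 0.0678 (adjusted p = 0.0022) that stayed under the fold threshold.

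PRIM1, the catalytic primase subunit, read 6.24, 5.18 and 4.66 FPKM in GM and 5.38, 4.59 and 5.54 FPKM in DM. These values overlapped, and the log2 fold change of −0.04 turned to 0.07 after rescaling to TPM, to 0.01 with size factors, to 0.06 without GM replicate 1 and to 0.03 without DM replicate 2. PRIM1 overlaps NACA on the same strand, a gene at 121 FPKM in GM and 80.3 FPKM in DM that was called lower, so the reads of PRIM1 are uncertain. The PRIM2 to POLA2 ratio was 1.98 in GM and 4.78 in DM.

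Among the replicative polymerases 1 of 5 genes fell and 4 of 5 had an adjusted p under 0.05. POLE, the catalytic subunit of the leading-strand polymerase epsilon, fell from 1.44, 1.42 and 1.37 FPKM to 0.500, 0.536 and 0.386 FPKM. The groups stood well apart, with a mean 2.98-fold higher in GM and a log2 fold change of −0.71 ± 0.0785 (adjusted p = 1.9e-04). POLD3, an accessory subunit of polymerase delta, read 7.00, 6.73 and 5.18 FPKM in GM and 6.35, 5.68 and 5.94 FPKM in DM, which overlapped. Its log2 fold change of −0.06 had an interval from −0.29 to 0.18, and it was 0.06 after rescaling to TPM and 0.02 without GM replicate 1.

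POLD1, the catalytic subunit of polymerase delta, had means of 5.26 and 3.20 FPKM (−0.57, adjusted p = 0.0011). It was called without GM replicate 1 (−0.65), DM replicate 1 (−0.61) or DM replicate 2 (−0.59), and with a pseudocount of 0.1 FPKM (−0.70). POLE2, the partner subunit of POLE, had means of 1.60 and 0.801 FPKM (−0.53, and −0.91 with a pseudocount of 0.1 FPKM) and POLD2 means of 4.00 and 3.22 FPKM (−0.24). Both catalytic subunits together, set against POLD2, POLD3 and POLE2, moved by −0.37 (exact permutation p = 0.1, adjusted 0.15), with no overlap of the libraries, and by −0.63 with that pseudocount.

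Of the clamp and its loader, 1 of 6 genes fell. PCNA, the sliding clamp that tethers the polymerases, fell from 16.4, 16.9 and 15.8 FPKM to 8.57, 9.28 and 9.25 FPKM. The 3 libraries of a group were close together and the groups far apart, with a log2 fold change of −0.79 ± 0.0569 (adjusted p = 1.8e-05). RFC1, the large loader subunit, read 18.5, 18.4 and 15.5 FPKM in GM and 16.4, 15.3 and 16.8 FPKM in DM. The RFC1 libraries overlapped, and the log2 fold change of −0.10 was 0.02 after rescaling to TPM.

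The small loader subunits RFC2, RFC3 and RFC4 had log2 fold changes of −0.48, −0.52 and −0.45, each with an adjusted p under 0.05, and RFC5 had −0.12 (adjusted p = 0.14). RFC2 to RFC5 minus RFC1 moved by −0.29 (exact permutation p = 0.1, adjusted 0.15), with the libraries apart.

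RPA, the trimer that coats single-stranded DNA, had 1 of 3 subunits called, and its subunits differed in sign. RPA3, the smallest subunit, fell from 25.0, 27.4 and 27.7 FPKM to 14.8, 12.7 and 14.8 FPKM, a full separation with a log2 fold change of −0.88 ± 0.0731 (adjusted p = 4.0e-05). RPA2 read 14.5, 15.1 and 13.4 FPKM in GM and 12.1, 11.0 and 12.4 FPKM in DM. It was lower in every DM library but short of the fold threshold (−0.25, adjusted p = 0.017). RPA1, the large subunit and the most abundant of the 50 transcripts per length, read 43.3, 42.0 and 43.5 FPKM in GM and 52.5, 49.9 and 54.7 FPKM in DM. Every DM library was above GM, and the log2 fold change of 0.28 ± 0.051 (adjusted p = 0.0028) was under the fold threshold. The RPA1 to RPA2 ratio was 2.99 in GM and 4.42 in DM.

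**Figure D3:**
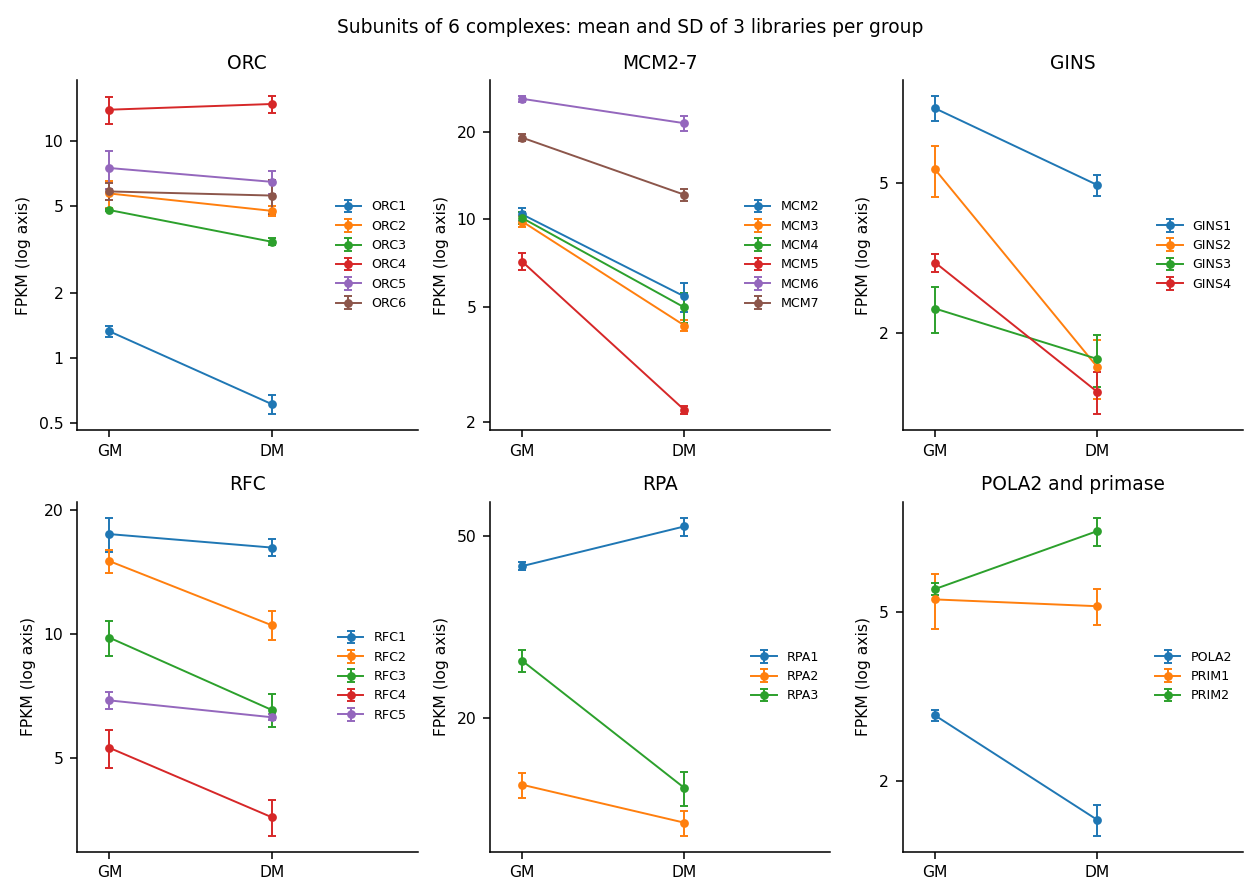
Mean FPKM in GM and DM of the subunits of 6 complexes on log axes, with error bars of 1 SD over 3 libraries. The lines spread in MCM2 to MCM7, where MCM6 goes from 25.9 to 21.4 FPKM and MCM5 from 7.14 to 2.21 FPKM, and RPA1 and PRIM2 slope upward where RPA3 and POLA2 slope downward.

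All 3 genes that finish the lagging strand fell. DNA2, a nuclease and helicase that trims long flaps, read 1.14, 1.28 and 0.948 FPKM in GM and 0.124, 0.316 and 0.284 FPKM in DM. The mean was 4.65-fold higher in GM, the widest ratio of the 50 genes, on low values that gave a log2 fold change of −0.77 ± 0.1 (adjusted p = 4.7e-04). LIG1, the ligase that seals Okazaki fragments, fell from 6.20, 7.05 and 6.26 FPKM to 3.20, 3.74 and 3.58 FPKM (−0.73, adjusted p = 1.3e-04). FEN1, the flap endonuclease, fell from 6.63, 6.51 and 6.71 FPKM to 4.29, 3.82 and 3.90 FPKM (−0.61). In all 3 genes the libraries of the groups were apart, and FEN1 alone of them lost its call when a library was left out, at −0.58 without DM replicate 2 (with size factors it was −0.55).

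Of the 4 fork protection genes, 2 fell. CLSPN, which encodes claspin, the checkpoint mediator at the fork, read 2.26, 1.81 and 1.49 FPKM in GM and 0.485, 0.527 and 0.342 FPKM in DM. The mean was 4.11-fold higher in GM with no overlap, and the log2 fold change was −0.97 ± 0.114 (adjusted p = 2.8e-04). WDHD1, which ties polymerase alpha to the helicase, fell from 5.40 to 3.20 FPKM (−0.60), a call lost without GM replicate 1 (−0.57) or without GM replicate 2 (−0.58) and with size factors (−0.55). TIMELESS read 4.02, 4.06 and 3.89 FPKM in GM and 3.58, 3.88 and 3.49 FPKM in DM, just apart, with a log2 fold change of −0.10 (adjusted p = 0.23). TIPIN, its partner in the fork protection complex, had means of 12.9 and 11.4 FPKM (−0.18, adjusted p = 0.10).

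CHAF1A and CHAF1B, which encode subunits of CAF-1, the complex that deposits histones H3 and H4 behind the fork, both fell. CHAF1B went from 9.89, 9.34 and 10.1 FPKM to 5.34, 5.44 and 4.18 FPKM (−0.85 ± 0.0908, adjusted p = 1.6e-04). CHAF1A went from 3.92, 4.00 and 3.93 FPKM to 1.75, 2.07 and 1.81 FPKM (−0.79 ± 0.0698, adjusted p = 5.8e-05). The groups were apart in both, and their ratio was 2.47 in GM and 2.66 in DM.

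Beyond the 50, a list of 35 further replication genes was examined, of which 34 were in the table and 33 tested. Of these, 14 fell and 0 rose in the limma test (2 were higher at an unadjusted p under 0.05), with a median log2 fold change of −0.49. PCLAF, a PCNA-binding factor, fell from 6.57 to 0.474 FPKM (−2.36), ASF1B, a histone chaperone, from 4.21 to 0.735 FPKM (−1.58) and ESCO2, a cohesin acetyltransferase, from 3.14 to 0.559 FPKM (−1.41). Each of these log2 fold changes was further from 0 than that of MCM5. At the other end, MCM9 (2.23 and 2.18 FPKM) and DSCC1 (5.46 and 5.36 FPKM) both had log2 fold changes of −0.02.

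Some of the 50 genes share a start region with another gene. In 9 of 50 genes (18.0%) the start lay within 1000 bp of the start of a gene on the opposite strand pointing away, beside 9.3% of all tested genes. FEN1 and its neighbour TMEM258, with starts 264 bp apart, were both called lower, TMEM258 going from 138 to 88.0 FPKM. For MCM4 and PRKDC, 573 bp apart, the log2 fold changes were −0.90 and −0.09, and for POLE and PXMP2, 52 bp apart, they were −0.71 and 0.35. CDC45 (−1.05) lay 474 bp from UFD1 (−0.14), and DBF4 (−0.75) lay 128 bp from SLC25A40 (−0.21), neither neighbour called.

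The m6A data are 1 peak list per group, called by the authors on the pooled libraries, so each peak carries a single value in a group, without replicate error. The value is fold enrichment, the ratio of pulled-down to input reads in the peak. The GM list held 49 peaks in 30 of the 50 genes and the DM list 62 peaks in 34, where 70.9% and 78.7% of all tested genes had a peak. A peak was present in both lists for 28 genes, in the GM list only for 2 (MCM5 and POLD1) and in the DM list only for 6 (MCM4, MCM6, ORC2, POLA2, PRIM2 and TIPIN), and 14 had none. Over all tested genes 68.6% had a peak in both lists, 2.32% in GM only, 10.1% in DM only and 19.0% in neither. Among the genes with DM peaks only, support was weaker for ORC2 (log10 false discovery rates −1.46 and −1.26), POLA2 (−1.59) and MCM6 (−2.63). It was −6.20 for MCM4, −7.73 for PRIM2 and −4.84 for TIPIN. The genes without a peak were CDT1, DNA2, GMNN, MCM8, ORC1, ORC4, ORC5, POLE2, PRIM1, RFC3, RFC4, RFC5, RPA3 and WDHD1, whose mean levels in GM ranged from 0.928 to 26.7 FPKM. That range overlaps the 1.15 to 42.9 FPKM of the genes with peaks in both lists. The part of transcript level in these absences was not tested.

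Peaks of the replication genes were mostly annotated to the 3′UTR. A peak carries 1 annotation even where it spans several exon blocks, such as the POLD3 peak of 8 blocks in each list. The DM peak of GINS2, of 5 blocks and annotated to the 5′UTR, overlapped 2 GM peaks annotated to the 3′UTR and an exon. The shares therefore describe annotations and not the position of the signal within a peak. In the GM list 61.2% of the 49 peaks were annotated to the 3′UTR, 24.5% to an exon and 14.3% to the 5′UTR, where all 19739 peaks had 42.6%, 41.3% and 16.1%. In the DM list the shares were 51.6%, 27.4% and 21.0% of 62 peaks, beside 45.3%, 36.5% and 18.2% of all 20790 peaks. Median fold enrichment was 3.25 in GM and 2.76 in DM, beside 3.27 and 3.38 over all peaks.

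**Figure D4:**
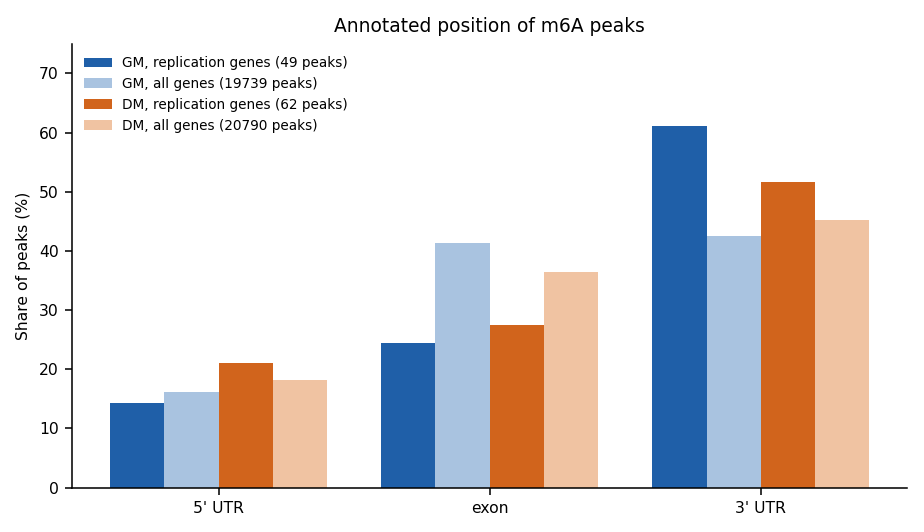
Share of m6A peaks (percent) annotated to the 5′UTR, an exon or the 3′UTR, for the replication genes (dark bars) and for all genes (light bars), in GM (blue) and DM (orange). The 3′UTR share of the replication genes is 61.2% in GM and 51.6% in DM, above the 42.6% and 45.3% of all peaks.

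Among the helicase genes, MCM3 carried the shared peak with the highest fold enrichment, annotated to the 3′UTR at chr23:24694544-24698333 in GM, with a fold enrichment of 8.14 in GM and 6.8 in DM. MCM5 had a single GM peak in the 3′UTR at chr5:73651710-73651830, with a fold enrichment of 2.27, and none in DM. MCM4 and MCM6 had 1 DM peak each, with fold enrichments of 3.98 and 1.47. MCM10 went from 1 peak to 4, among them a 5′UTR peak in DM at chr13:27854518-27854578 with a fold enrichment of 10.6. That MCM10 peak covers 61 bases and has a log10 false discovery rate of −1.84. CLSPN carried 5 peaks in each list, all annotated to exons. CHAF1A carried 4 peaks in GM and 6 in DM, of which 1 and 3 were annotated to exons.

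Of peaks that overlapped exactly 1 peak of the other list, the replication genes had 28 pairs in 21 genes. The ratio of fold enrichment, DM over GM, was above 1.5 in 6 pairs and below the inverse of 1.5 in 3, where 14.2% and 10.8% of all 10239 pairs were. The median ratio was 1.11, and 1.05 over all pairs. With 1 value per group none of these ratios has an error.

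ORC3 had the highest ratio, 2.435, in a 3′UTR peak at chr9:62267887-62268215 in GM that went from 3.06 to 7.45 in fold enrichment. LIG1 had a 3′UTR peak at chr18:54865681-54868336 in GM that went from 11.2 to 25.6, the highest fold enrichment among the peaks of the 50 genes, and a 5′UTR peak that went from 6.53 to 11.7. The 5′UTR peak of LIG1 was weakly supported in GM, with a log10 false discovery rate of −0.639. CDC7 had a 3′UTR peak at chr3:51855684-51855774 in GM that went from 5.81 to 11.7, although only 25.3% of the joined exon length was common to both peaks. GINS4 had 3′UTR pairs that went from 4.03 to 8.06 and from 5.44 to 9.58. In the second of these pairs the log10 false discovery rate was only −1.42 in GM and −1.58 in DM. LIG1 and GINS4 were called lower in mRNA, whereas ORC3 and CDC7 were not called.

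PCNA had the lower pair with the fullest overlap, a 3′UTR peak at chr13:47430406-47430732 in GM that went from 6.90 to 4.26 in fold enrichment with 84.5% of the joined length in common. The other lower pairs, in the 5′UTR of CHAF1A (8.71 to 1.83) and the 3′UTR of CDC6 (9.80 to 2.56), shared only 1 base, so they compare adjacent stretches of the transcript. Peaks annotated to the 5′UTR of CDC6 have blocks in WIPF2 and cannot be assigned to 1 of these genes. Where several peaks met 1, no ratio was formed. GINS3 had 3 GM peaks in the 3′UTR with fold enrichments of 4.04, 3.25 and 5.99 under 1 DM peak of 16.0, and CDC45 had 1 GM peak of 6.83 over 3 DM peaks of 3.19, 2.13 and 2.84.

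**Figure D5:**
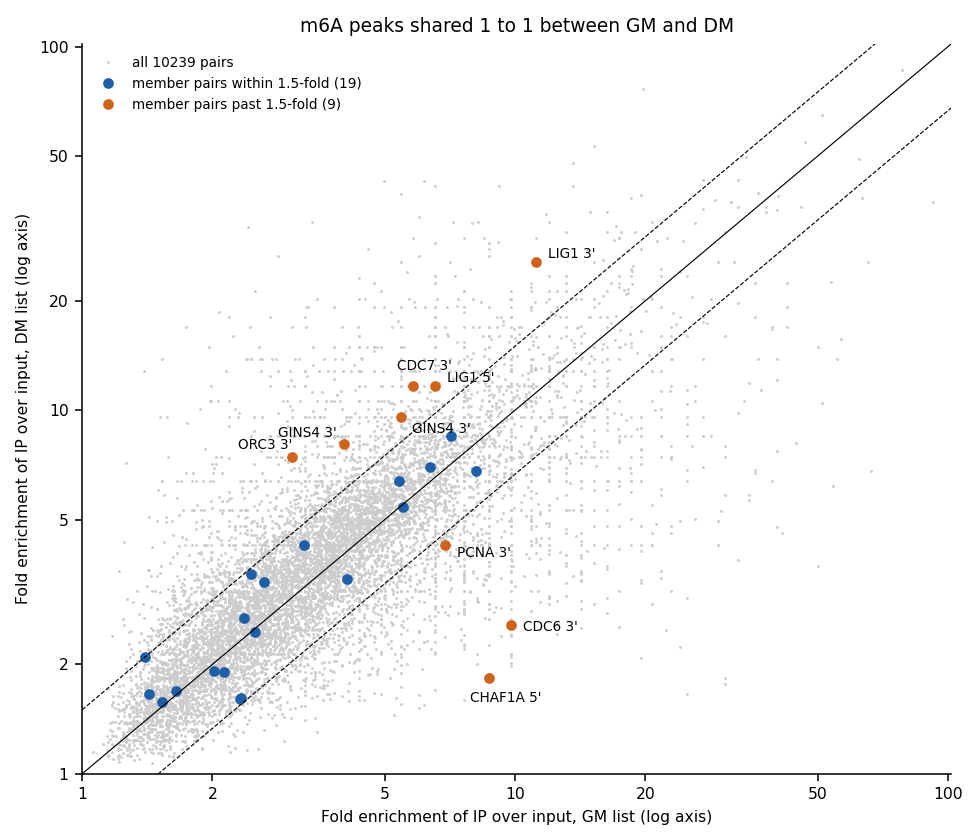
Fold enrichment of m6A peaks in DM against GM on log axes for all 10239 pairs (grey) and the 28 pairs of the replication genes (blue within 1.5-fold, orange past it), with a solid line at equality and dashed lines at 1.5-fold. The 6 orange points above the band belong to ORC3, LIG1, CDC7 and GINS4, and the 3 below it to PCNA, CHAF1A and CDC6.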

How the data were processed

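The 6 input libraries gave mRNA levels, and the 6 immunoprecipitated libraries entered through the pooled peak lists. Per the paper, the authors trimmed reads with Trimmomatic (the submitters' processing notes name cutadapt and fastp), aligned them with HISAT2 to ARS-UCD1.2 and computed the deposited FPKM with StringTie. The deposited peak lists came from exomePeak on uniquely mapped reads without duplicates (Sambamba), with ChIPseeker annotation. The fold enrichment in the lists is a linear ratio, IP to input, as deposited. The deposited column named score holds the p-value, not adjusted by the authors, and further deposited columns give the log10 of the p and of the false discovery rate.

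FPKM were tested in R 4.3.3 with limma 3.58.1 (moderated variances with a trend) on log2(FPKM + 1), GM against DM, for genes whose mean reached 0.5 FPKM. Calls needed a p below 0.05, not adjusted, together with more than 1.5-fold difference. Adjusted p-values are Benjamini-Hochberg values over all tested genes. Differences between sets of subunits were tested by two-sided exact permutation over libraries. The sets were formed from genes chosen with earlier results known, so a separation of the groups is not independent support. No read counts come with the FPKM, so precision is given by the spread of 3 libraries. Peaks were paired in Python 3.11.15 (pandas 2.3.3, numpy 2.4.6) when their exon blocks on 1 strand had 1 or more bases in common. Figures were drawn with matplotlib 3.10.9.

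The 50 genes, the further replication list and the markers were chosen with earlier results of these data known. Genes given with every library were those with the largest and smallest change of each role, those whose sign differed from their group, and those with an m6A pair past 1.5-fold. Of the further list the 3 largest falls and the 2 smallest changes are named. Replicate numbers are shared by GM and DM, but deviations of same-numbered libraries correlated at −0.0792, −0.123 and −0.208, so they were not treated as pairs. Alternatives covered the pseudocount, filters, TPM, size factors, a replicate block, the trend, thresholds, each library left out, stricter peaks, the overlap rule and centring. The fit and the pairing of peaks were run on simulated data. The simulated mRNA changes were all of a single size above 1.5-fold, so recovery of changes near that threshold was not tested. Promoter motifs, POLA1 and peaks per sample were not analysed here.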

Additional observations from a re-analysis of the deposited data

How the results depend on the processing

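Of the 22 calls, the replicate block kept all 22 and added none, the fit without a variance trend and the one without a filter gave the same 22, and the labels tie no replicate number to a shared culture or day. Calls over all genes were 12.0% with the replicate block, 11.9% without the trend and 8.08% without the filter. Size factors gave 18 calls, without CDT1, FEN1, MCM7 and WDHD1, where 11.4% of all tested genes were called. Rescaling to TPM gave 22, with CDC6, ORC1 and POLE2 in place of FEN1, MCM7 and WDHD1, while calls over all tested genes went from 11.9% to 14.3%. It also moved the median log2 fold change of all tested genes from −0.05 to 0.06. A pseudocount of 0.1 FPKM gave 29 calls, adding CDC6, GINS1, MCM8, ORC1, POLA2, POLD1 and POLE2, while calls over all tested genes went from 11.9% to 16.4%, and moved the median of the 50 genes from −0.55 to −0.70. With FPKM above 0.5 required in all 6 libraries, 45 of the 50 genes remained and 19 were called, since CLSPN, DNA2 and POLE dropped out. Under that filter 10.9% of all tested genes were called, and 8 of the further replication genes. A fold over 2 left 4 calls, all falls (CDC45, GINS2, MCM3 and MCM5), and 4 of the further genes. The share of all tested genes past that fold was not computed. Leaving out 1 library gave 21 to 24 calls, where 12.1 to 12.3% of all tested genes were called.

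Signs turned only in genes that were not called. ORC4 ranged from −0.022 (without GM replicate 3) to 0.17 when 1 library was left out. Rescaling to TPM put ORC6 at 0.049, RFC1 at 0.020, PRIM1 at 0.072 and POLD3 at 0.058. Size factors put PRIM1 at 0.013 and POLD3 at 0.0002. Leaving out libraries gave log2 fold changes from −0.18 to 0.028 for ORC6, −0.12 to 0.057 for PRIM1 and −0.17 to 0.015 for POLD3. The contrast of CDT1 and CDC6 against GMNN was −0.32 with a pseudocount of 0.1 FPKM and −0.10 in TPM, and that of ORC1 and ORC6 against ORC2 to ORC5 went from −0.12 (p = 0.3) to −0.33 (p = 0.1, both by exact permutation) with that pseudocount.

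Restricting peaks to a false discovery rate under 0.001 left 35 GM and 34 DM peaks, which were paired anew. That gave 5 changed pairs of 20, 5 higher and 0 lower, where 1118 of all 8643 pairs were higher and 739 lower. These pairs need not be the ones of the main rule. A ratio over 2 left 5 changed pairs, 3 of them higher, where 549 of all 10239 pairs were higher and 480 lower. Pairs were also formed anew when 50% of both peaks had to overlap. That gave 6 higher and 1 lower, where 1129 of all 9724 pairs were higher and 1081 lower. The CDC7 pair and the second GINS4 pair fail that rule, so the 6 include pairs absent from the main rule. Centring on the median of all pairs gave 6 higher and 5 lower, where 1193 of all 10239 were higher and 1317 lower. The cause of these shifts was not tested beyond the construction of each alternative.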
